A study of Mus musculus with 14 samples.

Results

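A set of 27 genes lost most of its RNA between day 7 and day 14 in cultured mouse Th2 cells, a helper type known from allergy and worm infection. Each of the 27 had at least 3 reads per 1000000 counted reads (CPM) in all 8 libraries of day 7, and its lowest day 7 CPM was at least 2 times its highest day 14 CPM. Of 22598 genes counted, 8093 reached that level at day 7, and 31 of these (0.383%) met the ratio. Actn1, Dapl1, Gpr183 and Klf2 met it too and were left out by name with other genes of naive T cells, which leaves the 27, called members below. The genes were thus chosen by their CPM at day 7 and day 14, so the size of the fall is given below as a description, with no test. The contrast between genotypes within a day was not used by the rule and is tested. The rule does limit how far libraries of a day can spread, since 1 low day 7 library or 1 high day 14 library removes a gene.

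The libraries came from naive CD4+ T cells of the spleen of C57BL/6J mice, which were sorted, activated and polarized towards Th2 in culture. The groups were 4 wild-type and 4 Ago134 knockout libraries of day 7, and 3 wild-type and 3 Ago134 knockout libraries of day 14. The knockout combines Ago1, Ago3 and Ago4, genes of Argonaute proteins, which carry microRNAs. The labels give no age, sex or cytokine dose, and they do not say which mice or cultures gave which library, so p-values cover no more than the spread between libraries, part of which may be technical. The sample labels name the later time 14 days, and 1 place in the series text names it 15 days.

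Naive and central memory T cells circulate through lymph nodes, which they enter from the blood with the help of the chemokine receptor CCR7 and leave along a gradient of sphingosine 1-phosphate. After activation, effector T cells turn these genes down and take up receptors for inflamed tissue. The transcription factors FOXO1 and KLF2 are known to drive the genes of the recirculating state, and KLF3 is a repressor of the Krüppel-like family.

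Total counts per library ran from 23326248 to 35803197, and 3 reads in a library stood for 0.0838 to 0.129 CPM. Ago1 had 67 to 141 reads in wild-type libraries, 0 in the 4 knockout libraries of day 7 and 0 to 2 in those of day 14. The defining T cell genes, such as Cd3e, Cd4 and Trac, were above 3 CPM in all day 7 libraries (10 of 10 genes) and their summed level overlapped between days, at 6174 to 9231 CPM at day 7 and 5760.2 to 8107 CPM at day 14. Markers of B cells summed to at most 4.29 CPM in any library, with 2 of 10 at 0 in all 14. Markers of myeloid and dendritic cells summed to 2.35 to 12.6 CPM at day 7 and 13.8 to 37.7 CPM at day 14, with 6 of 17 at 0 in all. Mast cell markers summed to 34.0 to 88.6 CPM at day 7. At day 14 they summed to 3.78 to 7.72 CPM in wild type and 23.6 to 148 CPM in knockout. Class II genes summed to 66.4 to 306 CPM at day 7 and 76.5 to 133 CPM at day 14. Those of CD8 T and NK cells summed to 11.5 to 21.4 CPM and then 25.5 to 52.4 CPM. The part of such cells in the fall of the members was not tested. No label names a sequencing run. From lane and serial numbers in the identifiers of the deposited tables, 2 runs were inferred. Run 1 would hold 7 day 7 libraries and 1 of day 14, wild-type library 2. Run 2 would hold 1 day 7 library and 5 of day 14, among them all knockout libraries of that day. Run and day therefore nearly coincide. Within run 1 the day 7 mean was 4.19 to 71.7 times the day 14 value over the 26 genes with day 14 reads (median 7.97), and within run 2 it was 2.93 to 33.7 times (median 6.50). The membership rule fixes a ratio of at least 2 within each run too, so these values are a description and no separate support for the fall. In bulk RNA, fewer cells of a type and less RNA per cell cannot be told apart.

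**Figure D1:**
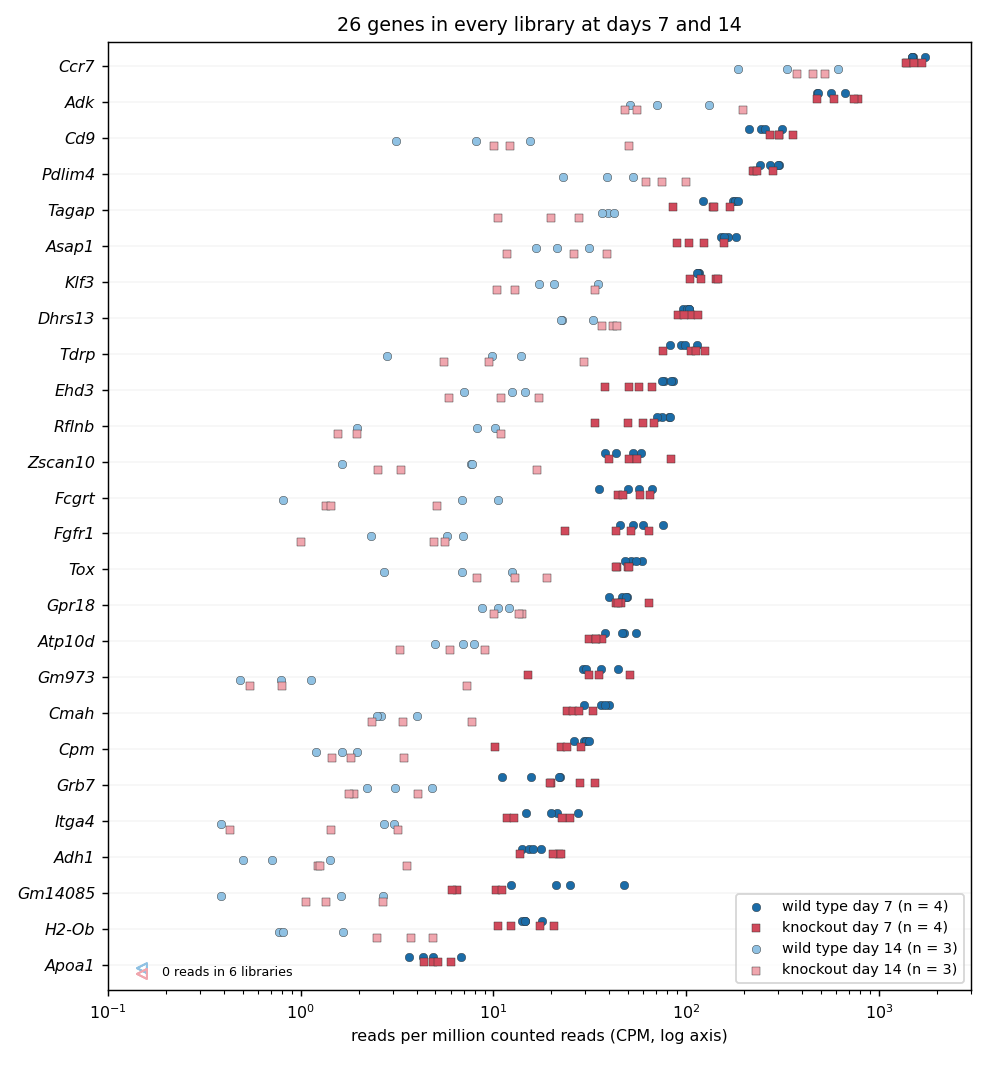
Level of 26 of the 27 genes in each of the 14 libraries, in CPM on a log axis. Circles are wild type and squares knockout, dark for day 7 and light for day 14, and each point is 1 library. In every row the day 14 points lie left of all day 7 points, which the membership rule requires, and Apoa1 has 0 reads in the 6 day 14 libraries.

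The plot of levels by library shows falls of very different size. Over the 26 genes with reads at day 14, the mean of the day 7 libraries was between 3.05 and 18.6 times the mean of the day 14 libraries, with a median of 6.84, and 9 genes reached 10 times. Among all 8093 genes at that day 7 level, 257 (3.18%) had every day 14 library below every day 7 library, by any margin, and 355 (4.39%) had every day 14 library above. The genes just inside the 2-fold line were Tagap (ratio 2.025), Dhrs13 (2.068) and Gm973 (2.076). Just outside stood BC106179 (1.985), Ly6c1 (1.969) and Fem1b (1.901).

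Of the genes that guide T cells through tissue, Ccr7, the receptor for the lymph node chemokines CCL19 and CCL21, was the most abundant. On the deposited length-normalized scale it stood at a mean of 544 RPKM at day 7 and 159 RPKM at day 14, first of the 27 on both days. Wild-type day 7 libraries held 1732, 1509, 1478 and 1483 CPM of Ccr7, and knockout day 7 libraries held 1394, 1379.8, 1525 and 1667 CPM. At day 14 the values were 611, 332 and 185 CPM in wild type and 524, 453 and 378 CPM in knockout. The genotypes overlapped at both days, and wild type spread more widely at day 14, at 376 ± 216 against 451 ± 73.2 CPM (SD, n = 3 each).

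Itga4 encodes the integrin alpha 4 chain, which pairs with beta 1 or beta 7 for binding to VCAM-1 and MAdCAM-1. It ran from 11.8 to 27.4 CPM at day 7 and from 0.388 to 3.19 CPM at day 14, and its partner genes did not separate by day. Itgb7 stood at 4851 to 6282 CPM and then 3386 to 5735 CPM, and Itgb1 at 61.3 to 128 CPM and then 16.1 to 127 CPM. Gpr18, a G protein-coupled receptor gene expressed in lymphocytes, fell from 39.7 to 64.5 CPM at day 7 to 8.73 to 14.1 CPM at day 14. It lies inside the opposite-strand gene Ubac2 (mean 338 CPM at day 7 and 283 CPM at day 14), and reads of the pair cannot be told apart where counting ignored strand, which the sources used here do not settle.

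Cd9, a tetraspanin that organizes integrins and other membrane proteins into patches, showed one of the widest separations. Its wild-type libraries held 212, 246, 256 and 314 CPM at day 7 and 15.4, 8.15 and 3.12 CPM at day 14. Knockout libraries held 273, 305, 358 and 304 CPM at day 7 and 50.4, 12.2 and 10.1 CPM at day 14. The first knockout library of day 14 stood far above the other 5 libraries of that day, and the genotypes overlapped at both days. Of 15 tetraspanin genes, 13 reached 3 CPM in all day 7 libraries. Among these, Cd9 and Tspan32 had all day 14 libraries below day 7, which the rule requires of Cd9. In 2, Cd82 (152 to 177 CPM, then 238 to 547 CPM) and Tspan31 (41.0 to 97.5 CPM, then 122 to 168 CPM), all lay above. The common lymphocyte tetraspanins Cd37, Cd53 and Cd81 overlapped between days.

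The Cpm gene encodes carboxypeptidase M, a membrane-anchored enzyme that trims basic residues from the ends of peptides, and is not to be confused with the unit CPM. Its wild-type libraries held 29.5, 30.3, 26.2 and 31.4 CPM at day 7 and 1.97, 1.20 and 1.64 at day 14. Knockout libraries held 22.4, 28.5, 24.2 and 10.2 at day 7 and 3.42, 1.83 and 1.46 at day 14. The fourth knockout library of day 7 was low, and the genotypes overlapped at both days. Among the 8 membrane peptidase genes at the day 7 level, 1, Cpm itself, had all day 14 libraries below all of day 7, as the rule requires. Dpp4 stood at 42.6 to 90.9 and then 9.86 to 103 CPM, and Cpd, a related carboxypeptidase gene, at up to 7.63 CPM at day 7 and 3.15 to 30.2 CPM at day 14.

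Sequence before the start site was compared for the 18 members with an entry among RefSeq promoters of GRCm38.p6, which span 250 bases before to 50 bases after each start. Atp10d, Fgfr1, Tdrp, Grb7, Tox, Asap1, Gm14085 and Ccr7 were among those with no entry. The letters GGGCGGG, bound by Sp1 and Krüppel-like factors, were searched on both strands and stood in 9 of 18 members, against 7540 of 27025 genes (27.9%). The 27025 were not limited to genes expressed in these cells, as the members were, and no set matched for expression was compared. The 20 promoters of the members had a median GC content of 60.3%, against 52.7% over all promoters, and the Sp1 letters are themselves rich in both bases. TTCAAAG, the letters bound by TCF and LEF factors, matched in 2 members, Gpr18 and Tagap (11.1%, against 5.93% of all genes). The letters CCGGAAG (ETS), TTCNNNGAA (STAT), TGTTTAC (forkhead) and TGANTCA (AP-1) each matched in 1 member (5.56%), against 9.93%, 9.55%, 4.05% and 8.97% of all genes. The letters AGATAAG, for the family of the Th2 regulator Gata3, matched in 0 members, against 3.50%. A match describes letters only, with no binding measured here. The windows below are shown for the genes Cd9 and Cpm and for Pdlim4, whose day 14 genotypes did not overlap, around 1 Sp1 match each, and for Gpr18 and Tagap around the TCF/LEF letters. They lie at chr6:125494810-125494866 (minus strand, match at position -81 from the start), chr10:117629377-117629433 (plus, -98), chr11:54069003-54069059 (minus, -17), chr14:121916063-121916119 (minus, -206) and chr17:7925763-7925819 (plus, -212), in that order. Capitals mark the match, on the strand of the gene, so that the last 2 show the reverse complement CTTTGAA. Further copies of a motif inside a window stay in lower case.
Cd9: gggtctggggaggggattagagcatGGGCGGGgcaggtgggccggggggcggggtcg
Cpm: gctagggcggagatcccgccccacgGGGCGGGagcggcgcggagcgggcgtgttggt
Pdlim4: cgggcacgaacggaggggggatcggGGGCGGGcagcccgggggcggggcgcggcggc
Gpr18: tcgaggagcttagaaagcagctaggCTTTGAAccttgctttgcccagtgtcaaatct
Tagap: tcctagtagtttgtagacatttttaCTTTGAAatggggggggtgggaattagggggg

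Receptors and signalling proteins made up a second group. Fgfr1, a receptor tyrosine kinase for fibroblast growth factors, stood at 23.5 to 75.4 CPM at day 7 and 1.00 to 6.94 CPM at day 14. The related Fgfr2, Fgfr3 and Fgfr4 were below 1 CPM in every library. Grb7, an adaptor that binds phosphorylated receptors, ran from 11.1 to 33.6 CPM and then from 1.78 to 4.79 CPM, and its relatives Grb10 and Grb14 were likewise below 1 CPM throughout.

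Tagap encodes a GTPase-activating protein of activated T cells. Its wild-type libraries held 122, 176, 179.5 and 185 CPM at day 7 and 39.5, 36.5 and 42.0 CPM at day 14. Knockout libraries held 137, 169.5, 139 and 85.1 CPM at day 7 and 27.8, 19.9 and 10.6 CPM at day 14. At day 14 every knockout library lay below every wild-type library, and at day 7 the genotypes overlapped.

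Asap1, a GTPase-activating protein for Arf proteins of membrane traffic, stood at 89.3 to 182 CPM at day 7 and 11.8 to 38.9 CPM at day 14. Ehd3, which acts in endocytic recycling, ran from 37.9 to 85.4 CPM and then from 5.90 to 17.3 CPM. Its relative Ehd1 moved the other way, from 54.1 to 71.9 CPM at day 7 to 83.5 to 150.1 CPM at day 14, with no overlap between days. Fcgrt, the heavy chain of the neonatal Fc receptor that recycles IgG and albumin, ran from 35.1 to 66.4 CPM and then from 0.805 to 10.5 CPM, while B2m, the gene of its light chain, overlapped between days.

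H2-Ob encodes a chain of H2-O, a class II accessory protein known from B cells that restrains peptide loading. Wild-type libraries held 14.5, 14.0, 14.5 and 17.9 CPM at day 7 and 1.65, 0.776 and 0.805 CPM at day 14. Knockout libraries held 12.4, 10.6, 17.5 and 20.7 CPM at day 7 and 4.85, 2.50 and 3.72 CPM at day 14. All 3 knockout libraries of day 14 lay above the wild-type libraries of that day, on 75 to 146 reads each against 24 to 46. H2-Oa, the gene of the partner chain, did not fall: it ran from 5.70 to 47.9 CPM at day 7 and from 21.6 to 34.7 CPM at day 14. Beside this, the summed B cell markers went from 1.03 to 4.29 CPM at day 7 to 0.300 to 0.802 CPM at day 14, when 6 of 10, Ms4a1 among them, were at 0. Their part in the fall of H2-Ob was not tested.

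Transcription factors and other nuclear proteins formed another group. Klf3, the repressor of the Krüppel-like family, stood at 105 to 146 CPM at day 7 and 10.4 to 34.8 CPM at day 14. Its relative Klf2, which was left out by name, went from 533 to 845 CPM to 28.3 to 227 CPM. Of the other Krüppel-like genes examined, Klf4, Klf6, Klf7, Klf9, Klf10 and Klf13 overlapped between days. Tox, a nuclear protein needed for the development of CD4 T cells in the thymus, ran from 43.5 to 58.9 CPM and then from 2.71 to 18.9 CPM. Tox4 overlapped between days, and Tox2 was at most 0.922 CPM at day 7 and 0.597 to 7.86 CPM at day 14. Zscan10, a zinc finger gene known from pluripotent stem cells, ran from 37.9 to 83.5 CPM and then from 1.64 to 16.8 CPM. Tdrp, named for the development of the testis, ran from 75.5 to 126 CPM and then from 2.80 to 29.6 CPM.

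Enzymes and transporters were the fourth group. Adk, adenosine kinase, which turns adenosine into AMP, was the most abundant of them, with a mean of 220.1 RPKM at day 7 and 36.3 RPKM at day 14. In CPM it ran from 475 to 777 at day 7 and from 48.2 to 197 at day 14, and the knockout library 1 of day 14 was its highest of that day. Of the other genes that handle adenosine and deoxynucleosides, Dck (24.9 to 35.0 CPM, then 5.92 to 24.1 CPM) had all day 14 libraries below day 7, and Ada, Nt5e and Slc29a1 overlapped. Cmah, which makes the sialic acid Neu5Gc, ran from 24.2 to 39.6 CPM and then from 2.35 to 7.77 CPM. Upstream of it, Cmas also had all day 14 libraries below day 7 (272 to 377 CPM, then 115 to 187 CPM), whereas Gne and Nans overlapped.

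Dhrs13, a short-chain dehydrogenase gene, held 104, 95.8, 101 and 103 CPM in wild-type and 106, 91.0, 115 and 97.7 CPM in knockout libraries at day 7. At day 14 it held 32.9, 22.6 and 22.3 CPM in wild type and 41.8, 36.5 and 44.0 CPM in knockout. Day 7 libraries were close together in both genotypes, and every knockout library of day 14 lay above every wild-type library. Atp10d, a phospholipid flippase gene that the annotation lists as a polymorphic pseudogene, ran from 31.3 to 54.7 CPM and then from 3.29 to 9.00 CPM.

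Apoa1, the gene of the main protein of high-density lipoprotein, stood apart, with 0 reads in all 6 libraries of day 14. At day 7 it held 6.79, 4.85, 4.30 and 3.66 CPM in wild type and 6.03, 4.36, 4.86 and 5.14 CPM in knockout, from 90 to 243 reads a library. Set against 3 counts over a group, the lowest level counted as detected, the day 7 mean was at least 147-fold higher in wild type and at least 162-fold higher in knockout. Apoa1 is known mainly from liver and gut. A list of 10 liver genes, among them Alb and Ttr, summed to 6.80 to 10.6 CPM in the day 7 libraries and 0.0996 to 0.300 CPM in the day 14 libraries. In all, 7 of the 10 had reads in every day 7 library and 9 of the 10 had none at day 14, and the day 7 library of run 2 had the highest sum. Adh1, an alcohol and retinol dehydrogenase gene also high in liver, ran from 13.7 to 22.4 CPM and then from 0.501 to 3.58 CPM. The part of these liver genes in the values of Apoa1 and Adh1 was not tested. Apoe, another apolipoprotein gene, went from 13.0 to 28.3 CPM to 2.72 to 7.69 CPM.

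Proteins of the actin cytoskeleton and predicted genes made up the rest. Pdlim4, a PDZ and LIM domain protein that binds actin filaments, held 304, 243, 271 and 300.0 CPM in wild-type and 226, 222, 282 and 233 CPM in knockout libraries at day 7. At day 14 it held 53.2, 38.8 and 23.0 CPM in wild type and 99.7, 74.9 and 62.2 CPM in knockout. The genotypes overlapped at day 7 and not at day 14. The related Pdlim1 showed the same order of groups at day 14, with 36.1 ± 8.07 CPM in wild type and 70.8 ± 12.8 CPM in knockout (SD, n = 3 each). At day 7 it ran from 112 to 169.6 CPM. Its knockout mean was the higher then too, unlike that of Pdlim4, at 153 ± 19.7 against 126 ± 13.1 CPM (SD, n = 4 each). Pdlim2, Pdlim5 and Pdlim7 overlapped between days, and Pdlim3 was at 0. At day 14 their means in wild type and knockout were 113 and 126 CPM (Pdlim2), 9.48 and 15.0 CPM (Pdlim5) and, in reverse order, 7.50 and 6.38 CPM (Pdlim7). Rflnb, a refilin that binds filamin, ran from 33.8 to 82.9 CPM at day 7 and stood at 6.80 ± 4.30 CPM in wild type and 4.83 ± 5.33 CPM in knockout at day 14 (SD, n = 3 each).

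Gm973 is a predicted gene that ran from 15.1 to 51.1 CPM at day 7 and from 0.485 to 7.27 CPM at day 14. Its highest day 14 value came from knockout library 1, and the other 5 libraries were at most 1.13 CPM. Gm14085 is a predicted gene beside the nucleoside transporter gene Slc28a2. Its wild-type libraries held 47.6, 24.9, 12.4 and 21.1 CPM at day 7 and its knockout libraries 10.3, 11.1, 6.46 and 6.13 CPM. At day 14 the values were 1.61, 2.68 and 0.387 CPM in wild type and 2.66, 1.36 and 1.06 CPM in knockout. All knockout libraries of day 7 lay below the wild-type ones, and at day 14 the genotypes overlapped. Slc28a2 stood at 69.4 ± 9.85 CPM in wild type and 44.3 ± 11.8 CPM in knockout at day 7 (SD, n = 4 each). How reads shared between similar neighbours were counted is not given, so the value of Gm14085 is uncertain.

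**Figure D2:**
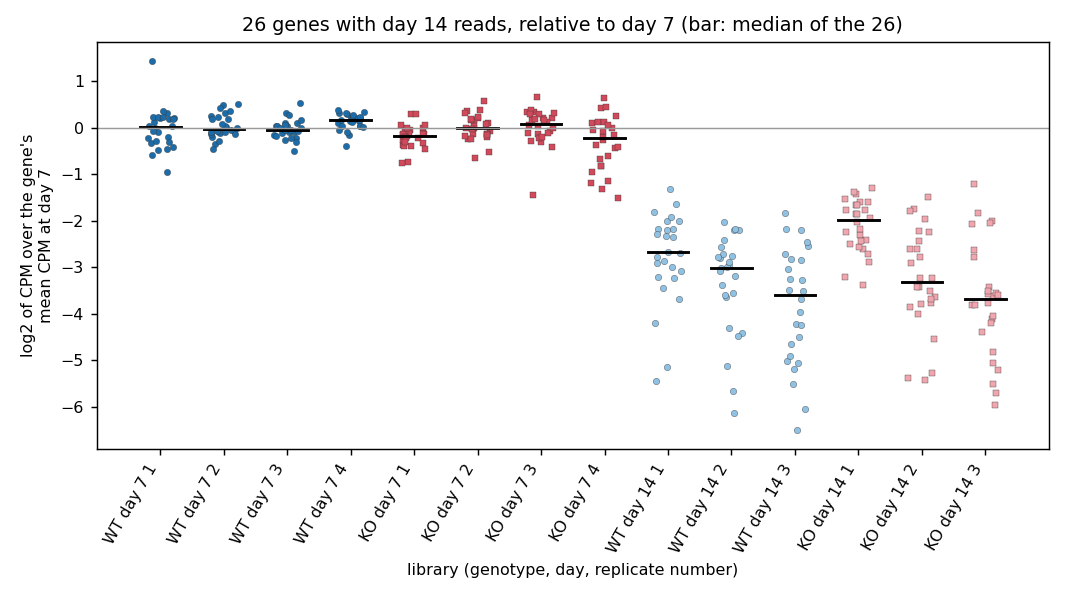
Level of the 26 genes with day 14 reads in each library, as log2 of the CPM over the gene's own mean CPM of day 7. Each point is 1 gene and each bar the median of the 26, and the first knockout library of day 14 has the highest points of that day for 18 genes.

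At day 14 many of the 26 genes were highest in the same library, as the plot relative to day 7 shows. Knockout library 1 of day 14 had the highest value of that day for 18 of the 26 and the lowest for 0. Deviations were taken on log2 of CPM plus 0.1, from each gene's mean of these logs over all libraries of the day. By this measure the library stood a median of 0.90 above, and the medians below are of the same kind. The count of genes highest in each library was not taken over all genes. That library also had the highest edgeR scaling factor (TMM), 1.124, which CPM does not use. Wild-type library 3 was lowest for 10 genes and knockout library 3 for 8, at medians of -0.56 and -0.57. The summed level of the members ran from 558 CPM in wild-type library 3 to 1419.6 CPM in knockout library 1 at day 14, and from 4206 to 5059 CPM at day 7. At day 7, knockout library 4 was lowest for 10 genes, with a median of -0.20. The 27 genes lay on 15 chromosomes, with 5 on chromosome 11 and 4 on chromosome 17, and 0 lay within 10 Mb of the targeted genes on chromosome 4.

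Knockout and wild type were then compared within each day with edgeR's quasi-likelihood test over 11591 genes, with Benjamini-Hochberg adjustment. At day 7, 0 of 27 members passed an adjusted p of 0.05, against 11 genes in all (0.0949%). DESeq2 called 1 member, Gm14085 (adjusted p = 0.0398), and 506 genes in all. Unadjusted p was under 0.05 for 2 of 27, both lower in knockout, against 23.4% of all genes tested. The members' fold changes lay on both sides of 0, with 12 higher and 15 lower in knockout and a median log2 fold change of -0.07, beside -0.01 over all genes. The 2 genes with an unadjusted p under 0.05 were Gm14085 (log2 fold change -1.65 ± 0.50 (SE), edgeR adjusted p = 0.154) and Ehd3 (-0.62 ± 0.29, edgeR adjusted p = 0.211). Without the wild-type library of run 2, which leaves run 1 alone at day 7, Gm14085 was at -1.22. In 4 members, Gm14085, Ehd3, Atp10d and Rflnb, all knockout libraries lay below all wild-type libraries, against 12.2% of all genes, and in 0 members all lay above, against 13.9%. Cpm stood at -0.49 ± 0.29 (edgeR adjusted p = 0.319) and Cd9 at 0.25 ± 0.46 (edgeR adjusted p = 0.772). The other values with the widest distance from 0 were those of Grb7 (0.49 ± 0.34), Asap1 (-0.49 ± 0.28), Rflnb (-0.58 ± 0.53) and Atp10d (-0.48 ± 0.24), none of which passed.

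**Figure D3:**
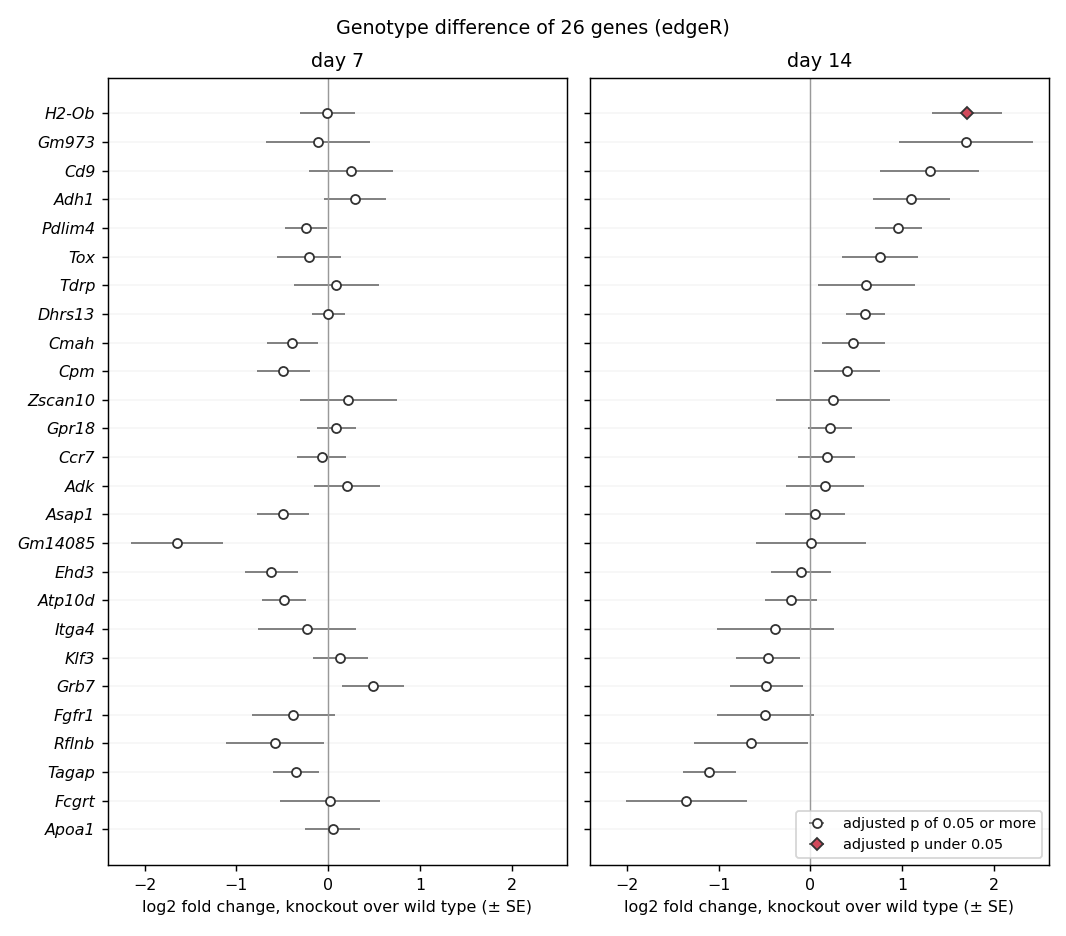
Log2 fold change of knockout over wild type for 26 of the 27 genes at day 7 (left) and day 14 (right), with bars of 1 SE from the edgeR fit. Filled diamonds have an adjusted p under 0.05, which holds for H2-Ob at day 14, and Apoa1, with 0 reads at day 14, has no point there.

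At day 14, 2 members were higher in knockout, H2-Ob among them, and 0 were lower. The count depends on the exclusions by name. Of the left-out genes that met the ratio, Dapl1 and Gpr183 were called higher too, and Klf2 and Actn1 were not called. Over all genes 165 were called (1.42%), 98 higher and 67 lower. Both counts moved widely when 1 library was left out, from 42 genes without knockout library 3 of day 14 to 2640 genes without wild-type library 3, and from 0 members without wild-type library 2 to 5 without wild-type library 3. DESeq2 called 4 members, the 2 that edgeR called and also Pdlim4 and Tagap, and 945 genes in all. Mean levels of H2-Ob were 3.69 ± 1.18 CPM in knockout libraries and 1.08 ± 0.494 CPM in wild-type ones (SD, n = 3 each; 1.71 ± 0.38, edgeR adjusted p = 0.0381). H2-Ob kept its direction in every fit run, and its log2 fold change stayed between 1.51 and 2.18 when 1 library was left out. Its adjusted p lay near the threshold and did not pass in 9 of these 14 fits. In 6 of the 9 a day 7 library was left out, with the fold change at 1.71 to 1.74 and an edgeR adjusted p of 0.0525 to 0.0641. The other 3 left out wild-type library 2 (1.53, edgeR adjusted p = 0.125), knockout library 1 (1.55, 0.0628) or knockout library 3 (1.64, 0.15) of day 14. Wild-type library 2 is the 1 day 14 library of inferred run 1. The fit without it therefore compares the genotypes of day 14 within run 2. With run as a term H2-Ob stood at 1.66 (edgeR adjusted p = 0.0864), and in a fit of the day 14 libraries alone at 1.62 (0.438).

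B cell markers summed to 0.322 to 0.465 CPM in wild type and 0.300 to 0.802 CPM in knockout at day 14, and class II genes to 105 to 133 and 76.5 to 119 CPM, beside the higher H2-Ob in knockout. Mast cell markers differed more widely between the genotypes at day 14, with sums of 3.78 to 7.72 CPM in wild type and 23.6 to 148 CPM in knockout, mainly Cpa3. Their part in the genotype differences was not tested.

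**Figure D4:**
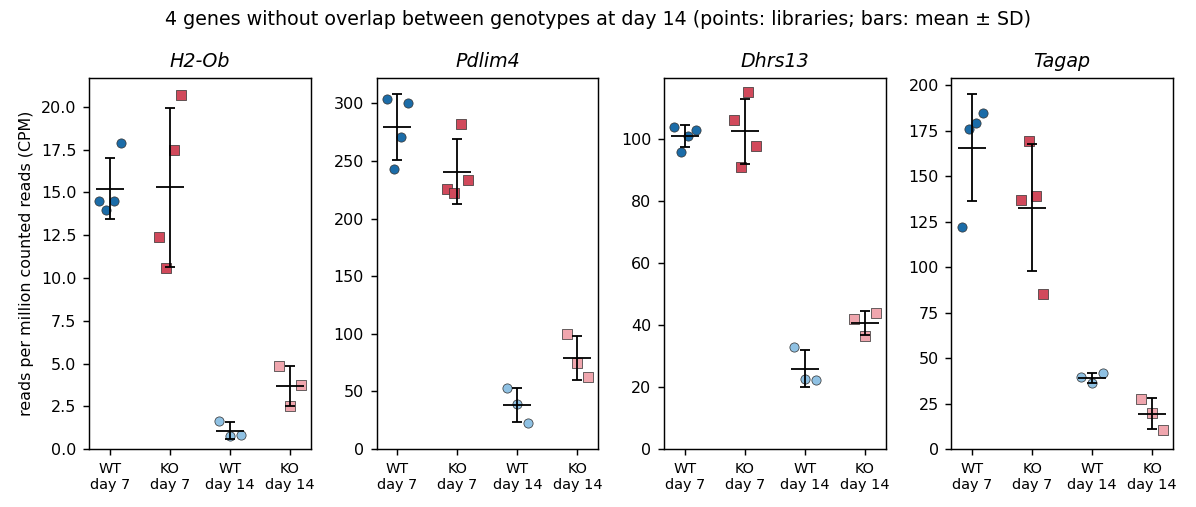
CPM of H2-Ob, Pdlim4, Dhrs13 and Tagap in each library, with the mean and SD of each group. At day 14 the knockout squares lie above the wild-type circles for H2-Ob, Pdlim4 and Dhrs13 and below them for Tagap, and at day 7 the genotypes overlap for all 4.

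Other members showed genotype differences at day 14 that did not pass the adjustment. Unadjusted p was under 0.05 for 8 of the 26 members with a fold change, 7 higher and 1 lower, against 21.7% of all genes. In 4 members, H2-Ob, Pdlim4 and Dhrs13 among them, all knockout libraries lay above all wild-type libraries, against 12.4% of all genes. In 1 member, Tagap, all lay below, against 5.24%. Pdlim4 was at 0.96 ± 0.26 (edgeR adjusted p = 0.0752), Dhrs13 at 0.60 ± 0.21 (edgeR adjusted p = 0.13) and Tagap at -1.10 ± 0.29 (edgeR adjusted p = 0.0678). Leaving out wild-type library 3 of day 14 took Pdlim4 (edgeR adjusted p = 0.0306), Tagap (0.0279) and Fcgrt (-1.87, 0.0137) past the threshold, and without knockout library 1 Tagap passed too (0.0355).

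Gm973 (1.70 ± 0.73, edgeR adjusted p = 0.202), Cd9 (1.30 ± 0.54, edgeR adjusted p = 0.191) and Adh1 (1.10 ± 0.42, edgeR adjusted p = 0.164) had large but variable differences at day 14. For each of the 3, knockout library 1 held the highest value. Fcgrt (-1.35 ± 0.66, edgeR adjusted p = 0.251) was the lowest, followed by Tagap, Rflnb (-0.65 ± 0.62), Fgfr1 (-0.49 ± 0.53) and Grb7 (-0.48 ± 0.40). Cpm stood at 0.40 ± 0.36 (edgeR adjusted p = 0.533) and Ccr7 at 0.18 ± 0.31 (edgeR adjusted p = 0.767). The median over the 26 members was 0.20, beside 0.01 over all genes, with 17 higher and 9 lower, and it turned to -0.27 without knockout library 1.

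The genotype difference was also compared between days by the interaction term, which uses the same libraries as the comparisons within each day. By edgeR, 0 of 26 members passed, against 10 genes in all (0.0863%), and unadjusted p was under 0.05 for 4 of 26, all with a positive term, against 7.97% of all genes. DESeq2 called 1 member, H2-Ob (adjusted p = 0.0443), and 159 genes. A positive term means that the knockout stood relatively higher at day 14 than at day 7. Among the 4 were H2-Ob (1.72 ± 0.48, edgeR adjusted p = 0.247), Pdlim4 (1.20 ± 0.35, edgeR adjusted p = 0.263) and Dhrs13 (0.59 ± 0.27, edgeR adjusted p = 0.619). By edgeR, the genotype difference of H2-Ob at day 14 was therefore not shown to differ from that at day 7. The median term was 0.52, beside 0.06 over all genes, and 0.09 without knockout library 1 of day 14. In the fit the term was positive for 18 of 26 members, against 55.7% of all genes. The values that follow are a description in CPM, for which no share over all genes was taken. The ratio of day 7 to day 14 means was larger in wild type for 20 of 26 genes. Its medians were 8.51 in wild type and 6.56 in knockout. It was widest for Gm973 in wild type (43.8) and for Fcgrt in knockout (20.4), and narrowest for Dhrs13 in both (3.89 and 2.51).

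Genes of the same pathways give the surroundings of these members. Over all genes tested, unadjusted p was under 0.05 for 23.4% at day 7 and 21.7% at day 14, beside which the unadjusted counts of each list stand. Of 22 naive and memory T cell genes, 19 reached the day 7 level. Of these, 12 had all day 14 libraries below day 7, among them Ccr7, Klf2, S1pr1, Tcf7, Lef1, Foxo1, Satb1, Id3, Dapl1, Actn1 and Cd27. For 5 of the 12, the members and the left-out genes that met the ratio, the rule fixed this. Of all genes at the day 7 level, 3.18% had all day 14 libraries below and 4.39% all above. Bcl2, the gene of a survival factor, was the 1 with all day 14 libraries above, at 12.3 to 19.4 CPM and then 29.6 to 154 CPM. In knockout at day 14, 3 of 20 tested genes of this list were higher, among them Id3 (1.45 ± 0.26, edgeR adjusted p = 0.0156) and Dapl1 (3.94 ± 0.58, edgeR adjusted p = 0.00642), and 0 lower, with a list median of 0.04. At day 7 edgeR called 0 of the 20, with unadjusted p under 0.05 for 1 higher and 5 lower and a list median of -0.12. Of the adhesion and migration genes, 20 reached the day 7 level, of which 5 had all day 14 libraries below and 2 above. For 2 of the 5, which are members, the rule fixed this. At day 14, 2 of 27 tested were higher in knockout, among them Ly6c1 (2.13 ± 0.45, edgeR adjusted p = 0.0346), and 0 were lower, with a list median of -0.10. At day 7 edgeR called 0 of the 27, with unadjusted p under 0.05 for 5 higher and 5 lower.

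Among chemokine and related receptors, 11 reached the day 7 level. Ccr7, S1pr1 and Gpr183 had all day 14 libraries below day 7, and 2, Ccr4 and Cxcr6, had all above. For Ccr7 and Gpr183, which met the ratio, the rule fixed this. The shares over all genes at that level were 3.18% below and 4.39% above. In knockout at day 14, 1 of 18 tested receptors was higher, Gpr183 (1.52 ± 0.27, edgeR adjusted p = 0.0127), a receptor for oxysterols that positions lymphocytes, and 0 were lower, with a list median of 0.10. At day 7 edgeR called 0 of the 18, with unadjusted p under 0.05 for 3 higher and 0 lower. Of 14 tetraspanin genes tested, edgeR called 0 at either day. Unadjusted p was under 0.05 for 7 higher and 0 lower at day 7, against 23.4% of all genes, and for 2 higher and 4 lower at day 14, against 21.7%. Of 11 membrane peptidase genes, 1 was lower in knockout at day 14, Adam15 (-1.21 ± 0.28, edgeR adjusted p = 0.0439). At day 7 edgeR called 0 of these, with unadjusted p under 0.05 for 1, which was lower. Id3, Dapl1, Ly6c1, Gpr183 and Adam15 kept their direction in all fits run. A fit of the day 14 libraries alone called none of the 5, with log2 fold changes of 1.36, 3.88, 2.05, 1.46 and -1.31 in that order and edgeR adjusted p of 0.218 to 0.381. With run as a term Ly6c1 (2.16, edgeR adjusted p = 0.0719) and Adam15 (-1.15, 0.0977) did not pass, and the other 3 did. Of the 14 fits that left out 1 library, Dapl1 passed in all. Gpr183 missed in 1 (without wild-type library 2 of day 14), Id3 in 2 (without that library or knockout library 3), Ly6c1 in 7 and Adam15 in 11.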

How the data were processed

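Groups and replicate numbers came from the sample titles. The submitters' processing notes name the aligner GSNAP (version 2013-11-01) and the build GRCm38. Each deposited table holds whole-number counts and RPKM for 1 library, per the file headers. The sources used here do not give how reads were assigned to genes, by strand or not, nor the annotation. CPM is the count divided by the library's summed counts, times 1000000. RPKM was used only to set levels of different genes side by side. Symbols and coordinates came from GENCODE vM21.

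Counts of all 14 libraries were fitted in R 4.3.3 with edgeR 4.0.16 (filterByExpr, TMM, robust quasi-likelihood, 1 mean per group), with calls at a Benjamini-Hochberg adjusted p under 0.05. The SE is the log2 fold change divided by the square root of F. The fit was tried on simulated data in which each gene was drawn independently. That trial does not cover shifts of many genes together in 1 library. The lists were not tested with DESeq2.

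Members, lists and motifs were chosen with earlier results of these data known, and the liver list and the genes related to members were added with the members' values in view. Named in full are Cd9, Cpm, called members, those with the highest ratios, levels or genotype differences, list members and genes nearest the ratio threshold, and Gm14085 after its values were seen. Alternatives were other scaling, filters and thresholds, DESeq2 1.42.0, fits of 1 day, a replicate block, a run term (runs inferred from identifiers of the tables) and leaving out each library. No pair of libraries in a group agreed within sampling noise. Intervals of counting error are not given, and the floor of 3 counts covers counting error only. The values of 1 member are not reported here, though it enters the counts and sums.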

Additional observations from a re-analysis of the deposited data

Results flagged for a closer look

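In the groups of 4 libraries at day 7, the gap between the most distant library and its nearest neighbour was compared with the range of the group for each gene. Of 54 such groups, 4 had a library set apart, and chance sets one apart in about 1 in 20 groups of values that were not selected. The genes here were chosen by these day 7 values, so that rate does not apply to them and the 4 are given as values. Gpr18, the lymphocyte receptor gene, stood at 64.5 CPM in knockout library 4, with the next at 45.9 CPM. Ccr7 stood at 1732 CPM in wild-type library 1, with the next at 1509 CPM. H2-Ob stood at 17.9 CPM in wild-type library 4, with the next at 14.5 CPM. Tagap was low in wild-type library 1, at 122 CPM, with the next at 176 CPM. Wild-type library 1, set apart for Ccr7 and Tagap, is the day 7 library of run 2.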

How the results depend on the processing

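At day 14, 2 members and 165 genes were called. Other scaling or no count filter kept both members, with 248 genes called on unscaled library sums. DESeq2 called 4 members (adding Pdlim4 and Tagap) and 945 genes, a fit of the day 14 libraries alone 0 and 0, and the run term 0 and 79. At day 7, DESeq2 called 1 member, Gm14085 (adjusted p = 0.0398), and 506 genes, against 0 and 11 by edgeR. In the interaction it called 1 member, H2-Ob (adjusted p = 0.0443), and 159 genes, against 0 and 10, and the run term left 1 gene.

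Leaving out each library in turn gave 0 to 5 members and 42 to 2640 genes at day 14, the extremes for members coming without wild-type libraries 2 and 3. The single member called without knockout library 1 of day 14 was Tagap. At day 7 it gave 0 members and 8 to 14 genes, and in the interaction 0 members and 1 to 380 genes. The cause of these shifts was not tested.

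Whether replicate numbers pair the genotypes is not settled. For this, each gene's log2 CPM in a library was taken as its deviation from the mean of the library's group. These deviations, not the levels themselves, were correlated between wild-type and knockout libraries of a day. They sum to 0 within a group, so the correlations of a day are not independent. Correlations of same-numbered libraries were -0.10, 0.30, -0.06 and 0.23 at day 7 and 0.19, 0.32 and 0.06 at day 14. Libraries with different numbers gave -0.33 to 0.38 at day 7 and -0.35 to 0.19 at day 14. With so few pairs a day, a pairing can be neither shown nor excluded. With the replicate block, 0 members and 15 genes were called at day 7, 2 and 236 at day 14 and 0 and 7 in the interaction, and of the 5 list genes named at day 14 the block lost Adam15 (-1.22, edgeR adjusted p = 0.0608).

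By the CPM rule 31 genes qualified before the exclusions, and the 27 are counted after them. A ratio of 1.5 gave 51 genes and a ratio of 3 gave 10. TMM-scaled CPM gave 30, of which 26 are members. Leaving out 1 library gave 27 to 58 genes, 48 without knockout library 4 of day 7 and 58 without knockout library 1 of day 14. All 27 members stayed each time, which the rule fixes in advance. Without a library, the lowest day 7 value cannot fall and the highest day 14 value cannot rise. That they stayed is therefore no sign of a stable set. Depth limits the low members most: H2-Ob rested on 24 to 46 reads a library in wild type at day 14.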
